A study of Mus musculus with 75 samples.

Results

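The nuclear genes for subunits of respiratory complexes II, III, IV and V were followed through kidneys with unilateral ureteral obstruction (UUO) in mice. Members were the rows of the gene count table named Sdha, Sdhb, Sdhc, Sdhd or Cyc1, or with a symbol starting with Uqcr, Atp5 or Cox followed by 4, 5, 6, 7 or 8, and symbols containing -ps were left out. This gave 48 of the 32245 rows in the table. The rule reads symbols alone, and it was set with earlier results of these data known.

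The series holds 75 libraries of whole kidney RNA in 12 groups, which form 3 arms of 4 groups each. In every arm, kidneys after 3 days of UUO stood beside contralateral (CL) kidneys. In the ABTAA arm, wild-type mice received either ABTAA, an antibody that binds and clusters ANGPT2 and so activates the endothelial receptor TIE2 (7 CL and 7 UUO libraries), or a control IgG (8 and 8). In the Veptp arm, VeptpKO mice lost Veptp (gene Ptprb), a phosphatase that opposes TIE2, through a tamoxifen-induced Cdh5-CreERT2 that acts in endothelium (6 CL and 8 UUO), and VeptpWT controls carried the Cre and a floxed allele without induction (7 and 8). The study's account has fewer VeptpWT mice than there are VeptpWT UUO libraries, and which library this concerns is not known here. In this arm the libraries numbered 3, 4, 7 and 8 also carry opposite genotypes in their CL and UUO names, so values of VeptpWT and VeptpKO hold for libraries so labelled. In the Pdgfb arm, PdgfbKO mice carried floxed Pdgfb, the gene of a platelet-derived growth factor chain, with an induced CreERT2 active throughout the body, and PdgfbWT controls were littermates without Cre (4 libraries in each of the 4 groups). Mice were adults of both sexes. Kidneys of 2 sham-operated mice are among the PdgfbWT CL libraries, which the labels do not mark.

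Complex II (succinate dehydrogenase) passes electrons from succinate to ubiquinone and is also an enzyme of the citric acid cycle. Complex III (the cytochrome bc1 complex) hands electrons on to cytochrome c, complex IV (cytochrome c oxidase) reduces oxygen, and complex V (ATP synthase) uses the proton gradient across the inner mitochondrial membrane, to which complexes III and IV contribute along with complex I, to make ATP. All subunits of complex II are nuclear, whereas the other complexes combine nuclear subunits with a few made from mitochondrial DNA. Proximal tubule cells, which form much of the renal cortex, are rich in mitochondria and rely on oxidative phosphorylation for solute transport.

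Library totals ran from 172827 to 2341800 counts with a median of 757897, and the members took 0.980% to 3.85% of each library. The library names have 2 forms, 45 plain and 30 with a low line (_) in them. Plain names make up the whole Pdgfb arm, while each of the other 8 groups holds both. The labels do not say what the form stands for, and it moved with the members' levels. Counts of members called in UUO against CL are therefore given below with and without it as a term. Other counts are given without it unless stated. In the targeted-gene check, Ptprb averaged 54.7 CPM (counts scaled to a common library size) in VeptpWT and 34.6 in VeptpKO CL kidneys, and 52.0 and 33.8 CPM in UUO kidneys, where the log2 fold change was -0.69 (edgeR quasi-likelihood, unadjusted p = 0.0433, adjusted p = 1). Pdgfb went against the label in CL kidneys, with means of 10.6 CPM in PdgfbWT and 19.4 in libraries labelled PdgfbKO (log2 fold change 0.78, edgeR unadjusted p = 0.026, adjusted p = 1), and with it in UUO kidneys, with 53.9 and 37.8 CPM (-0.47, edgeR unadjusted p = 0.0342, adjusted p = 0.125). The CL means rest on 35 Pdgfb counts in PdgfbWT and 48 in libraries labelled PdgfbKO. The study's account has Pdgfb expression lowered by the knockout in UUO and CL kidneys alike. Directions given below for PdgfbKO hold for libraries labelled PdgfbKO.

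The promoters of these genes were searched for motifs of factors known to control nuclear genes of mitochondria, because the members moved together in the comparisons below. RefSeq promoter sequences (GRCm38.p6) were found for 36 of 48 members, and the 250 bases before the start site listed first for each gene were read on both strands. The NRF1 motif GCGCANGCG was in 7 of 36 (19.4%), against 5.33% of all 27025 promoters of that length. The ETS motif CCGGAAG, bound by GABPA among others, was in 8 of 36 (22.2%), against 7.05%. The estrogen-related receptor motif TCAAGGTCA was in 1 of 36 (2.78%), that of Atp5g3, against 0.366%, and the YY1 motif AAGATGGCG was in 0, against 0.607%. The NRF1 letters read much alike on both strands, so overlapping matches can be counted on each. A match describes the letters and is no evidence of binding. The 5 promoters printed here are 1 or 2 of each complex: Sdhd and Cox6a1 hold NRF1 and ETS motifs, Uqcr11 (the member of complex III with the largest fall in IgG and PdgfbWT) an ETS motif, Atp5g3 the receptor motif, and Cox7a1 (the member with the largest fall in IgG and PdgfbWT) none of the 4. Each runs 5′ to 3′ on the gene's own strand, and capitals mark the motifs.
Sdhd, chr9:50603850-50604099, minus strand: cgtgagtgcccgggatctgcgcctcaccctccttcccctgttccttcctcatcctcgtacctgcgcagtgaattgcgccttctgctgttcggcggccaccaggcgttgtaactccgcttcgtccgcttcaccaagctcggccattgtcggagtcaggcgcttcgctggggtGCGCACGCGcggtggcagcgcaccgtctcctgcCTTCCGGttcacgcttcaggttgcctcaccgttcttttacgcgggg
Uqcr11, chr10:80406822-80407071, minus strand: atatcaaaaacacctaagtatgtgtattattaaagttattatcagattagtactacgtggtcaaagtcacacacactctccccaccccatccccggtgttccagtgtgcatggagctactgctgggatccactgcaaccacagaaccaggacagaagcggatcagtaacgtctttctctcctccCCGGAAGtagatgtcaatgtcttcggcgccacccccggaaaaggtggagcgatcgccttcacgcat
Cox6a1, chr5:115348959-115349208, minus strand: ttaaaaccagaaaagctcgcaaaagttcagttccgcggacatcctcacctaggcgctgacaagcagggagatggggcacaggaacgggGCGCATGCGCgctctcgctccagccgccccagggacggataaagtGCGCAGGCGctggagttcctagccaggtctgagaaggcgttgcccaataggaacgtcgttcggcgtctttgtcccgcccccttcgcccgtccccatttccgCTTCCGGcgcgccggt
Cox7a1, chr7:30183921-30184170, plus strand: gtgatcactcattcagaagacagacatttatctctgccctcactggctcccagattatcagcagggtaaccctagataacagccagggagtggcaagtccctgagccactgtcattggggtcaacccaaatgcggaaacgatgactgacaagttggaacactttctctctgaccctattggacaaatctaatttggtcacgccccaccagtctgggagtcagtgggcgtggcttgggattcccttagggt
Atp5g3, chr2:73911327-73911576, minus strand: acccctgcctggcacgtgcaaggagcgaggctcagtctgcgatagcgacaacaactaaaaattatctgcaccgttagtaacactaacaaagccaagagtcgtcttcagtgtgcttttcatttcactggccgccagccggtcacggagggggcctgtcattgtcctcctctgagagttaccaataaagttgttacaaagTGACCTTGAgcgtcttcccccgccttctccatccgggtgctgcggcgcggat

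Levels were given as CPM, each library's counts scaled to a common total with edgeR's TMM factors, and a complex was summarised in each library as the mean log2(CPM + 1) of its members that were tested in all 3 arms (4 of complex II, 9 of III, 12 of IV and 17 of V). In PdgfbWT kidneys, complex II averaged 9.46 ± 0.09 (SD, n = 4) in CL and 8.27 ± 0.11 in UUO, complex III 9.25 ± 0.22 and 8.09 ± 0.07, complex IV 9.12 ± 0.27 and 8.02 ± 0.03, and complex V 9.48 ± 0.29 and 8.37 ± 0.07. In kidneys labelled PdgfbKO, the corresponding CL and UUO levels were 9.45 ± 0.07 and 9.07 ± 0.07 (II), 9.26 ± 0.10 and 9.05 ± 0.04 (III), 9.11 ± 0.12 and 8.92 ± 0.05 (IV), and 9.50 ± 0.12 and 9.26 ± 0.05 (V). For all 4 complexes the PdgfbWT UUO libraries lay below every other library of that arm.

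In the IgG groups, complex II fell from 9.38 ± 0.19 (SD, n = 8) in CL to 8.40 ± 0.29 in UUO kidneys, and complex IV went from 9.03 ± 0.64 to 8.11 ± 0.61. The wider spread of complex IV ran with the name form: the plain libraries averaged 9.58 ± 0.09 (SD, n = 4) in CL and 8.61 ± 0.25 in UUO, and the low-line libraries 8.47 ± 0.37 and 7.61 ± 0.35. In the Veptp arm it was wider again, with complex IV at 8.39 ± 1.09 (n = 7) in VeptpWT CL, 7.90 ± 0.97 (n = 8) in VeptpWT UUO, 8.31 ± 0.89 (n = 6) in VeptpKO CL and 8.05 ± 1.02 (n = 8) in VeptpKO UUO. Complex II varied less there, with SDs from 0.28 to 0.53 over those 4 groups. In the ABTAA-treated mice complex II stood at 9.33 ± 0.15 (n = 7) in CL and 8.68 ± 0.43 (n = 7) in UUO.

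**Figure D1:**
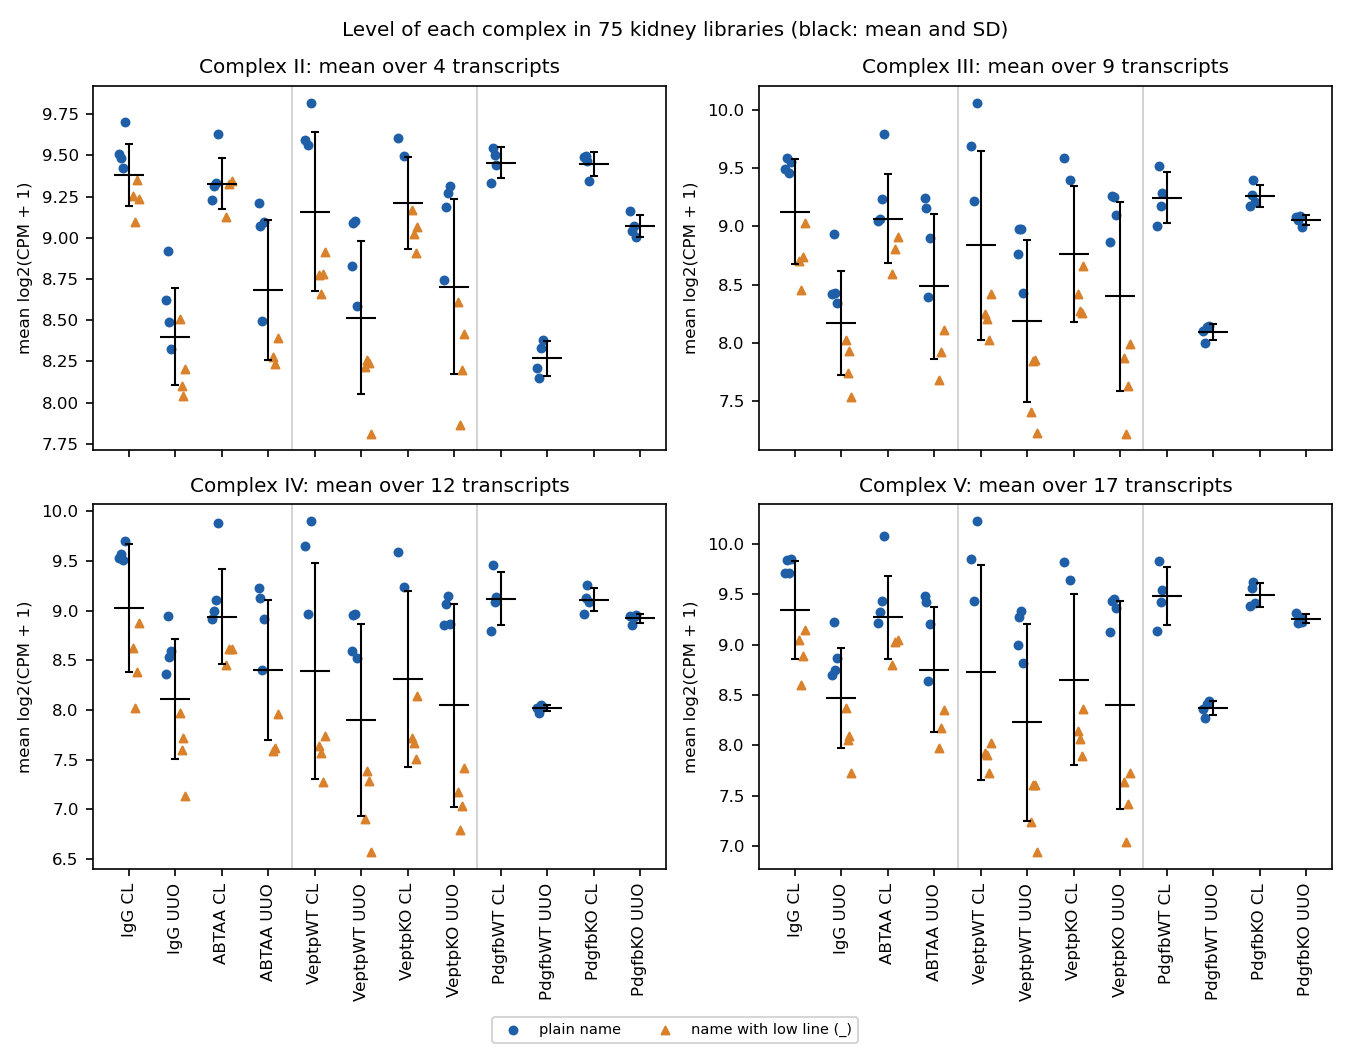
Mean log2(CPM + 1) of the tested members of each complex (1 panel each) in every library, by group, with the form of the library name marked and the group mean and SD drawn. In all 4 panels the 4 PdgfbWT UUO libraries sit below the other Pdgfb libraries, and in the other 8 groups the lowest library of every panel has a low-line name.

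The comparison of UUO with CL kidneys asked how obstruction alone changed these transcripts. With the edgeR quasi-likelihood test and Benjamini-Hochberg adjustment over all genes, 37 of 42 members tested fell in the IgG-treated mice, beside 18.2% of all genes called lower, and 42 of 43 fell in PdgfbWT, beside 19.4%. No member rose in either, beside 16.3% and 17.9% of all genes called higher. With the name form as a term, 41 of 42 fell in IgG, beside 21.4%. The median log2 fold change over the tested members was -0.92 in IgG and -1.14 in PdgfbWT. In whole kidneys, fewer cells of a type and less RNA per cell cannot be told apart.

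In complex II, all 4 members fell in both of these comparisons, with a median near -1 in IgG and -1.17 in PdgfbWT. Sdha encodes the flavoprotein that oxidizes succinate. Its lowest, median and highest levels were 1026, 1359.9 and 1593 CPM in the 8 IgG CL kidneys and 607, 735 and 852 CPM in the 8 IgG UUO kidneys. The groups did not overlap, and the log2 fold change was -0.84 ± 0.13 (SE, edgeR adjusted p = 4.77e-06). In PdgfbWT, the CL libraries held 1292, 1295, 1431 and 1301 CPM of Sdha and the UUO libraries 563, 515, 596 and 624 CPM, again without overlap (-1.21 ± 0.14, edgeR adjusted p = 1.94e-07). Sdhb, the iron-sulfur subunit, fell by more. It ranged from 816 to 1122 CPM in IgG CL and from 323 to 655 CPM in IgG UUO (-1.06 ± 0.17, edgeR adjusted p = 8.25e-06), and PdgfbWT went from 867, 1023, 982 and 951 CPM to 362, 312, 382 and 395 CPM (-1.40 ± 0.12, edgeR adjusted p = 3.21e-09). The membrane anchors Sdhc and Sdhd changed by -1.02 and -1.14 on the log2 scale in PdgfbWT.

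In complex III, 8 of 9 members fell in IgG and 9 of 9 in PdgfbWT, with medians of -0.96 and -1.18. Uqcrc1, a core protein, ranged from 522 to 840.0 CPM (median 645) in IgG CL and from 284 to 401 CPM (median 329) in IgG UUO, without overlap (-0.96 ± 0.14, edgeR adjusted p = 7.97e-07). In PdgfbWT it went from 442, 758, 477 and 649.9 CPM to 243, 245, 269.7 and 269 CPM (-1.18 ± 0.15, edgeR adjusted p = 7.40e-07). The redox subunits Uqcrfs1 (the Rieske iron-sulfur protein) and Cyc1 (cytochrome c1) changed by -1.04 and -1.11 in IgG and by -1.39 and -1.18 in PdgfbWT. Cyc1 went from 376, 431, 385 and 395 CPM in PdgfbWT CL to 184, 158, 190.0 and 169.7 CPM in UUO, and Uqcrfs1 from 485, 382, 353 and 354 CPM to 142, 143, 153 and 165 CPM. Neither overlapped between the kidneys. Among the small subunits, Uqcr11 had the largest fall of the complex in both comparisons. In PdgfbWT CL it stood at 599, 1309, 888 and 987 CPM, and in UUO at 348, 302, 317 and 319.5 CPM (-1.56 ± 0.18, edgeR adjusted p = 1.40e-07). In IgG kidneys its ranges were 308 to 1585 and 154 to 821 CPM, which overlapped (-1.18). The member that missed the threshold in IgG was Uqcr10, at -0.77 (edgeR adjusted p = 0.107).

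In complex IV, 10 of 12 members fell in IgG and 12 of 13 in PdgfbWT, with medians of -0.94 and -1.11. Cox4i1, the general form of subunit 4, ranged from 1362 to 3006 CPM (median 2424) in IgG CL and from 652 to 2082 CPM (median 1499) in IgG UUO (-0.72, edgeR adjusted p = 0.0156). In PdgfbWT it went from 1968, 3272, 2353 and 2828 CPM to 1096, 1030.1, 1048 and 998 CPM, without overlap (-1.32 ± 0.16, edgeR adjusted p = 2.43e-07). Cox7a1 encodes the form of subunit 7a typical of heart and skeletal muscle and had the largest fall of all members in IgG and PdgfbWT. Its PdgfbWT levels were 29.4, 64.0, 52.6 and 47.0 CPM in CL and 7.67, 11.5, 13.7 and 14.0 CPM in UUO (-2.01 ± 0.29, edgeR adjusted p = 5.61e-06). In IgG its lowest, median and highest levels were 10.2, 45.7 and 99.9 CPM in CL and 2.71, 11.8 and 36.0 CPM in UUO (-1.99 ± 0.50, edgeR adjusted p = 0.00205). These ranges overlapped in IgG and not in PdgfbWT. The IgG UUO levels of Cox7a1 rested on 2 to 13 counts per library.

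Cox7a2l, a relative of subunit 7a known for joining complexes III and IV, had the smallest change of complex IV among called members in PdgfbWT. It stood at 285, 301, 236 and 311 CPM in CL and 252, 199, 212 and 168 CPM in UUO (-0.45 ± 0.15, edgeR adjusted p = 0.0178), and at -0.30 in IgG (edgeR adjusted p = 0.115). Cox5a, a subunit with a single gene, ranged from 197 to 727 CPM in IgG CL and from 138 to 481 CPM in IgG UUO, and also missed the threshold there, at -0.81 (edgeR adjusted p = 0.0501). In PdgfbWT, Cox5a changed by -1.14 ± 0.13 (edgeR adjusted p = 1.85e-07), and the general forms Cox6a1, Cox6b1 and Cox8a by -0.98, -1.05 and -1.27. Cox6b2, a form typical of testis, was the member not called in PdgfbWT (0.34 ± 0.36, edgeR adjusted p = 0.504). The other tissue forms were scarce over the 63483511 counts of all libraries: Cox8c had 0 counts, which allows up to 0.0473 CPM, Cox7b2 had 1 count, Cox6a2 44, Cox4i2 57, Cox8b 223 and Cox6b2 703. Cox4i1 made up 99.9% of the Cox4 counts in PdgfbWT CL kidneys.

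In complex V, 15 of 17 members fell in IgG and 17 of 17 in PdgfbWT, with medians of -0.89 and -1.14. Atp5b, the catalytic beta subunit of the F1 head, ranged from 2268 to 3472 CPM (median 2630.0) in IgG CL and from 1161 to 1875 CPM (median 1407) in IgG UUO, without overlap (-0.94). In PdgfbWT it went from 2200.0, 2597, 2398 and 2409.6 CPM to 984, 878, 961 and 1015 CPM (-1.32 ± 0.14, edgeR adjusted p = 3.97e-08). Atp5a1, the alpha subunit beside it, ranged from 1742 to 2229 CPM in IgG CL and from 862 to 1559.8 CPM in IgG UUO, again without overlap (-0.83 ± 0.14, edgeR adjusted p = 1.67e-05). All 5 members of the F1 head and all 4 of the peripheral stalk fell in both comparisons. In the c ring, the 3 paralogues encode the same mature protein and differ in their import sequences, and Atp5g1 changed by -1.51 ± 0.15 in PdgfbWT (edgeR adjusted p = 2.97e-08) against -0.73 ± 0.14 for Atp5g2 (edgeR adjusted p = 0.000214). Atp5md, a small membrane subunit, had the smallest change of the complex in PdgfbWT (-0.63 ± 0.18, edgeR adjusted p = 0.00636). Atp5g2 (-0.50, edgeR adjusted p = 0.0775) and Atp5l (-0.79) were the members of complex V not called in IgG. Atp5k, Uqcrh, Atp5l, Cox5b, Atp5c1, Cox7c and Atp5f1 have pseudogene copies in RefSeq that can share reads with them, so their levels are less certain.

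**Figure D2:**
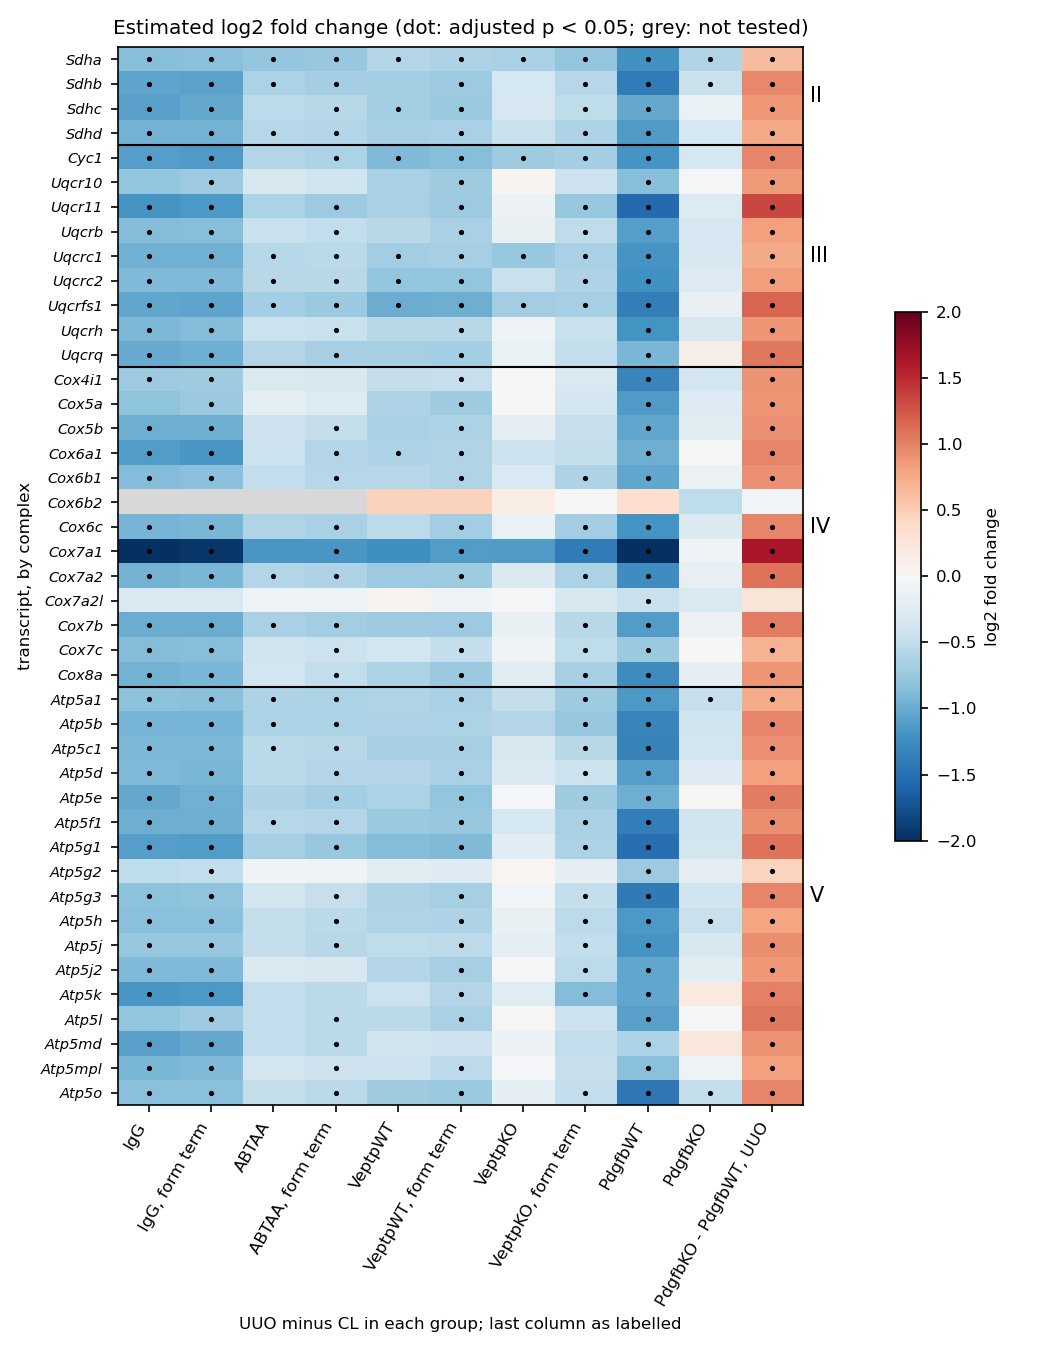
Heat map of the estimated log2 fold change of each tested member (rows, by complex) for UUO minus CL in the 6 treatment or genotype groups, with and without the name form as a term where both forms occur, and for PdgfbKO minus PdgfbWT UUO kidneys in the last column. Dots mark adjusted p under 0.05, grey marks a member not tested in that arm, and colours end at -2 and 2. IgG and PdgfbWT are dotted in 37 of 42 and 42 of 43 rows, with Cox7a1 darkest, and PdgfbKO in 5 of 43.

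In the other groups of the ABTAA and Veptp arms, fewer members passed, and the count depended on the name form. In ABTAA-treated mice 12 of 42 members fell (edgeR, beside 12.5% of all genes called lower), with a median of -0.51. They were Sdha, Sdhb and Sdhd of complex II, Uqcrc1, Uqcrc2 and Uqcrfs1 of complex III, Cox7a2 and Cox7b of complex IV, and Atp5a1, Atp5b, Atp5c1 and Atp5f1 of complex V. With the form as a term, 35 members fell (beside 16.8% of all genes): 4 of complex II, 8 of III, 9 of IV and 14 of V. The 6 low-line libraries with shared numbers were taken as pairs. With the replicate number as a block in them, 40 fell (beside 17% of all genes), and without the block 36 fell in the same libraries (beside 13.1%). In plain libraries alone 0 of 42 were called by edgeR (beside 4.37% of all genes), with 9 at an unadjusted p under 0.05 and a median of -0.32, and in low-line libraries alone 34 were (beside 13%), with a median of -0.88. The test of that difference in response over the arm called 0 of 42 members (edgeR, background 0.0313%), and 8 had an unadjusted p under 0.05.

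In VeptpWT mice 7 of 43 members fell (beside 8.38% of all genes called lower), with a median of -0.62, and they were Sdha, Sdhc, Cyc1, Uqcrc1, Uqcrc2, Uqcrfs1 and Cox6a1. With the form as a term 39 fell, beside 17.3%. The members not called were then Cox6b2, Cox7a2l, Atp5g2 and Atp5md. In VeptpKO mice 4 of 43 fell (beside 3.47%), with a median of -0.18, and they were Sdha, Cyc1, Uqcrc1 and Uqcrfs1. With the form as a term 30 fell, beside 10.8%, of which 4 were of complex II, 6 of III, 7 of IV and 13 of V, and the median was -0.52. Without the libraries numbered 3, 4, 7 and 8, 2 members fell in VeptpWT (beside 2.71% of all genes) and 0 in VeptpKO by edgeR (beside 0.127%, with 3 members at an unadjusted p under 0.05). With the form as a term and without them, 38 fell in VeptpWT (beside 10.6%) and 11 in VeptpKO (beside 3.76%). Plain libraries alone gave 30 of 42 called in VeptpWT (beside 6.7%) and 0 in VeptpKO (4 at an unadjusted p under 0.05), where edgeR called 0 genes of the whole table (0%). Low-line libraries alone gave 18 in VeptpWT (beside 11.9%) and 23 in VeptpKO (beside 10.6%). The test of a difference in UUO response between the forms called 0 of 43 members in this arm (edgeR, background 0.436%), with 0 at an unadjusted p under 0.05.

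Sdha, for example, differed between the forms within a group. It ranged from 857 to 1437 CPM (median 965) in VeptpWT CL and from 573 to 1025 CPM (median 682) in VeptpWT UUO, so the groups overlapped. The 3 plain CL libraries held 1217 to 1437 CPM and the 4 low-line CL libraries 857 to 965 CPM. In IgG CL kidneys the order was the other way, with 1026 to 1408 CPM in plain and 1312 to 1593 CPM in low-line libraries, which overlapped. With the form as a term the log2 fold change of Sdha was -0.62 ± 0.12 in VeptpWT (edgeR adjusted p = 0.000123) and -0.79 ± 0.13 in VeptpKO (edgeR adjusted p = 2.35e-05). In ABTAA-treated mice Sdha ranged from 1116 to 1863 CPM in CL and from 664 to 1041 CPM in UUO, without overlap. Taking all members tested, 10 of 42 had every UUO library below every CL library in IgG (beside 4.98% of all genes), 1 of 42 in ABTAA (2.67%), 2 of 43 in VeptpWT (2.3%) and 0 of 43 in VeptpKO (0.512%). Among plain libraries the same was true of 40 members in IgG (11.7%), 3 in ABTAA (6.56%), 27 in VeptpWT (11.1%) and 23 in VeptpKO (7.59%). Among low-line libraries it was true of 26 (14.4%), 37 (18.8%), 21 (14.7%) and 24 (10.4%) in the same order.

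The comparisons of treatment or genotype within one kidney type asked whether TIE2 activation changed these transcripts. Between ABTAA-treated and IgG-treated UUO kidneys, edgeR called 0 of 42 members (background 0%), 3 had an unadjusted p under 0.05, and DESeq2 and the edgeR exact test also called 0. The median log2 fold change was 0.30. With the form as a term 11 members had an unadjusted p under 0.05. The share of all genes at that threshold is not given here, so this count does not set the members apart. Between the CL kidneys 0 were called (background 0%) and 0 had an unadjusted p under 0.05, with a median of -0.10. The difference of UUO responses, ABTAA minus IgG, was not called for any of 42 members (background 0%), with 0 at an unadjusted p under 0.05 and a median of 0.42. Uqcrc1 had an edgeR log2 fold change of 0.28 ± 0.14 in UUO kidneys (unadjusted p = 0.0499, adjusted p = 1.00).

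Between VeptpKO and VeptpWT, edgeR called 0 of 43 members in UUO kidneys (background 0%), with 1 at an unadjusted p under 0.05 and a median of 0.22. In CL kidneys 0 were called (background 0%), with 0 at an unadjusted p under 0.05 and a median of -0.16, and the same counts held for the difference of responses (background 0%), where the median was 0.34. With the form as a term 8 members had an unadjusted p under 0.05 in UUO kidneys, again without the share of all genes at that threshold. These tests do not show that the groups were alike: the median SE of members up to 700 bases long was 0.56 in the VeptpWT comparison of UUO with CL, and 0.17 with the form as a term.

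The Pdgfb arm asked whether loss of this growth factor changed the response to obstruction. In libraries labelled PdgfbKO, 5 of 43 members fell in UUO against CL kidneys (edgeR, beside 2.42% of all genes called lower), and the median was -0.27. They were Sdha (-0.60, edgeR adjusted p = 0.011), Sdhb (-0.45, edgeR adjusted p = 0.0274), Atp5a1 (-0.46, edgeR adjusted p = 0.0375), Atp5h (-0.45, edgeR adjusted p = 0.0365) and Atp5o (-0.47, edgeR adjusted p = 0.0429). No member of complexes III or IV was called. Every UUO library lay below every CL library for 11 of 43 members (beside 5.13% of all genes), against 39 of 43 in PdgfbWT (beside 17.3%). The count of 5 calls by edgeR rested on single libraries: it was 0 without PdgfbKO CL replicate 2 or PdgfbKO UUO replicate 4, 1 without PdgfbKO UUO replicate 2 or 3, 2 without PdgfbKO CL replicate 3, 3 without PdgfbKO CL replicate 4 or PdgfbWT CL replicate 4, and 9 without PdgfbKO UUO replicate 1.

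In UUO kidneys, 41 of 43 members were higher in libraries labelled PdgfbKO than in PdgfbWT (edgeR, beside 12% of all genes called higher), with a median log2 fold change of 0.91. The medians were 0.81 for complex II, 0.88 for III, 0.91 for IV and 0.92 for V. For 41 of 43 members every PdgfbKO UUO library lay above every PdgfbWT UUO library, beside 12.7% of all genes. The members not called were Cox6b2 (-0.05 ± 0.34, edgeR adjusted p = 0.941) and Cox7a2l (0.25 ± 0.15, edgeR adjusted p = 0.261). In CL kidneys 0 of 43 members differed by genotype (edgeR, background 0%), with 0 at an unadjusted p under 0.05 and a median of 0.01, and DESeq2 and the exact test also called 0.

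The libraries behind this comparison share the PdgfbWT UUO values given above. Sdha stood at 1133, 852, 911 and 703 CPM in PdgfbKO UUO and at 1322, 1537, 1394 and 1165 CPM in PdgfbKO CL. Its UUO levels lay between those of PdgfbWT UUO and PdgfbKO CL without overlap (0.64 ± 0.14 against PdgfbWT UUO, edgeR adjusted p = 0.00195). Sdhb stood at 738, 674, 683 and 722 CPM in PdgfbKO UUO (0.96 ± 0.12, edgeR adjusted p = 6.29e-06). Both of these complex II members stayed below their PdgfbKO CL levels, and both passed the test of UUO against CL. In complex III, Uqcr11 was at 905, 756, 856 and 721 CPM in PdgfbKO UUO and 753, 1047, 1160.2 and 969 CPM in PdgfbKO CL (log2 fold change against PdgfbWT UUO 1.33 ± 0.18, edgeR adjusted p = 9.92e-06). Uqcrfs1 was at 374, 352, 309 and 318 CPM, above the 4 PdgfbWT UUO libraries and within the range of PdgfbKO CL (1.16 ± 0.14, edgeR adjusted p = 2.41e-06). The ranges of both complex III members overlapped with those of PdgfbKO CL. Cox4i1 was at 2167, 1807, 2002 and 1825 CPM, all above the 4 PdgfbWT UUO libraries (0.90 ± 0.15, edgeR adjusted p = 0.00017). Atp5b was at 2242, 1792, 1823 and 1677 CPM, again all above them (0.97 ± 0.14, edgeR adjusted p = 1.94e-05). Cox7a1 had the largest difference, with 30.6, 28.6, 20.9 and 61.3 CPM in PdgfbKO UUO and 32.6, 35.7, 37.0 and 46.8 CPM in PdgfbKO CL (1.63 ± 0.30 against PdgfbWT UUO, edgeR adjusted p = 0.000386). With each library left out in turn this value ranged from 1.12 to 1.87 and stayed past the threshold. Its UUO and CL ranges overlapped in libraries labelled PdgfbKO.

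**Figure D3:**
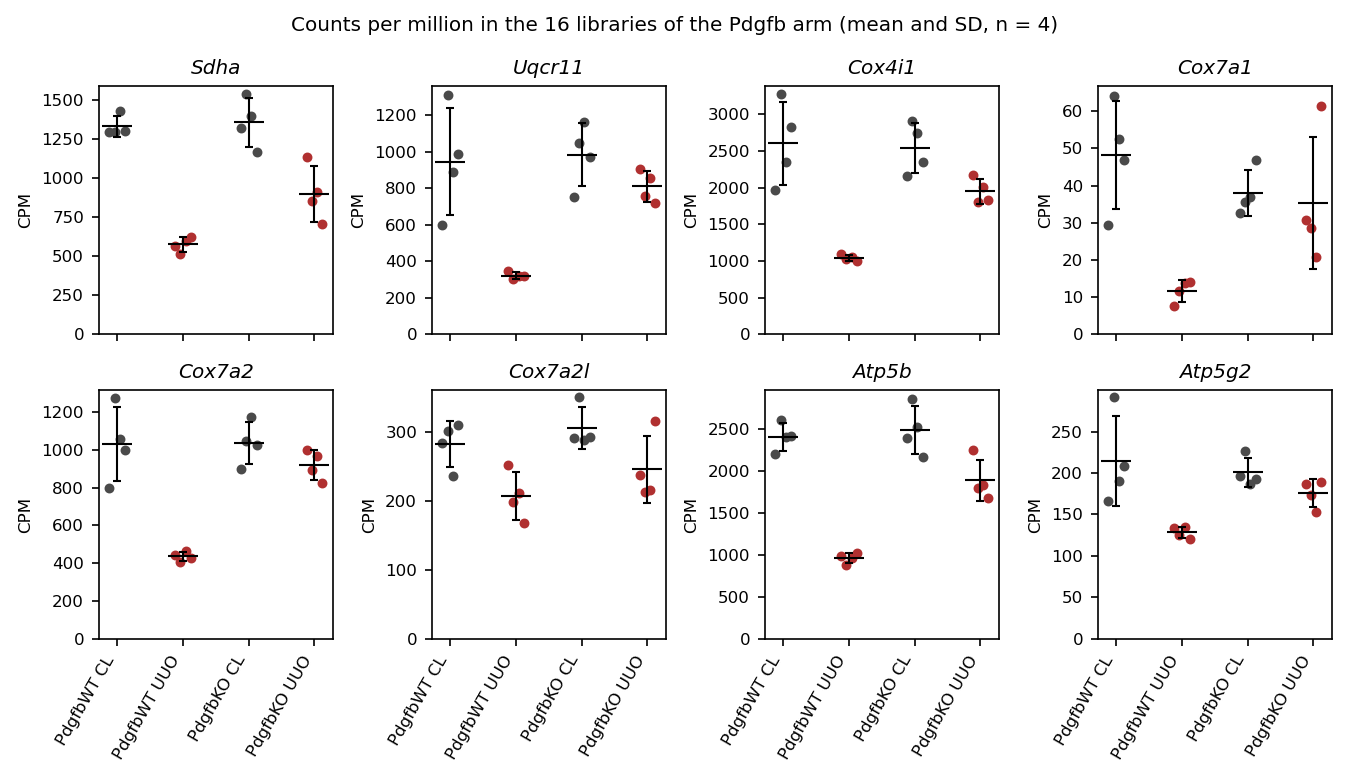
CPM of named members (1 panel each, axes from 0) in every library of the Pdgfb arm, with the mean and SD of the 4 libraries of each group and UUO libraries in red. The PdgfbWT UUO libraries lie below all other libraries for Sdha, Uqcr11, Cox4i1, Cox7a1 and Atp5b, whereas Cox7a2l overlaps between the genotypes in UUO.

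The difference of responses itself, PdgfbKO minus PdgfbWT, was higher for 39 of 43 members (edgeR, beside 6.66% of all genes called higher): 3 of complex II, 9 of III, 11 of IV and 16 of V. The members not called were Sdha (0.61 ± 0.20, edgeR adjusted p = 0.052), Atp5g2 (0.53 ± 0.21, edgeR adjusted p = 0.115), Cox7a2l (0.14 ± 0.21, edgeR adjusted p = 0.763) and Cox6b2 (-0.84 ± 0.52, edgeR adjusted p = 0.375). Cox7a1 had the value 1.94 ± 0.42 (edgeR adjusted p = 0.00399) and Uqcr11 1.28 ± 0.25 (edgeR adjusted p = 0.0017). Without TMM scaling 24 of 43 were called (beside 2.86% of all genes) and the median of all genes moved by -0.29 on the log2 scale. Leaving out this scaling moved the median of all genes by 0.37 in UUO against CL of PdgfbWT, where 40 members were then called (beside 10.6%), and by -0.27 between the genotypes in UUO kidneys, where 40 were (beside 6.01%).

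Paralogues of one subunit did not fall alike. Their ratio within a library cancels the scaling, apart from the 1 CPM added to each level. Log2 ratios were compared over libraries by an exact two-sided permutation test with arrangements kept within name form, 28 tests in all. These ratios were chosen after the values were seen. The ratio of Atp5g2 to Atp5g1 was higher in UUO than CL kidneys by 0.78 in PdgfbWT (exact permutation p = 0.0286, the smallest that 70 arrangements allow, adjusted p = 0.05), by 0.68 in IgG (exact permutation, adjusted p = 0.0114), by 0.71 in ABTAA (adjusted p = 0.03), by 0.61 in VeptpWT (adjusted p = 0.0114) and by 0.50 in VeptpKO (adjusted p = 0.03). An adjusted p of 0.05 does not pass the threshold, so the ratios of the Pdgfb arm, with 4 libraries a group, are given as values. In VeptpKO the difference was 0.30 (exact permutation p = 0.439) with arrangements not kept within name form. In libraries labelled PdgfbKO the difference was 0.17 (exact permutation p = 0.371, adjusted p = 0.433), and in UUO kidneys the ratio was lower there than in PdgfbWT (difference -0.63, adjusted p = 0.05). As a share of the counts of the 3 paralogues, Atp5g2 made up 8.00% in PdgfbWT CL, 12.6% in PdgfbWT UUO and 9.22% in PdgfbKO UUO, where Atp5g3 made up 57.7%, 56.0% and 55.8%. The ratio of Atp5g3 to Atp5g1 was also higher in UUO kidneys, by 0.34 in IgG (exact permutation, adjusted p = 0.0312), 0.31 in ABTAA (adjusted p = 0.0133) and 0.24 in VeptpWT (adjusted p = 0.03). It was 0.14 in VeptpKO (adjusted p = 0.377), 0.08 in PdgfbWT (adjusted p = 0.343) and -0.05 in libraries labelled PdgfbKO (adjusted p = 0.741), and -0.12 between the Pdgfb genotypes in UUO kidneys (adjusted p = 0.433). Leaving out 1 library at a time moved these differences, to 0.03 (without VeptpKO CL replicate 1) to 0.28 (without VeptpKO CL replicate 2) in VeptpKO, 0.05 (without PdgfbWT CL replicate 2) to 0.13 (without PdgfbWT CL replicate 1) in PdgfbWT, and -0.13 (without PdgfbKO UUO replicate 1) to 0.03 (without PdgfbKO UUO replicate 3) in libraries labelled PdgfbKO. The difference between the Pdgfb genotypes ranged from -0.20 without PdgfbKO UUO replicate 1 to -0.04 without PdgfbKO UUO replicate 3. The difference of 0.17 in the ratio of Atp5g2 to Atp5g1 in libraries labelled PdgfbKO became 0.05 without PdgfbKO UUO replicate 4 and 0.27 without PdgfbKO UUO replicate 3.

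In the Cox7a family, the ratio of Cox7a2l to Cox7a2 (the liver form, found in most tissues) was higher in UUO kidneys by 0.77 in PdgfbWT (exact permutation, adjusted p = 0.05), 0.63 in IgG (adjusted p = 0.0312), 0.52 in ABTAA (adjusted p = 0.03) and 0.62 in VeptpWT (adjusted p = 0.0312). In VeptpKO it was 0.32 (adjusted p = 0.193) and in libraries labelled PdgfbKO -0.16 (adjusted p = 0.448), and the difference between the Pdgfb genotypes in UUO kidneys was -0.84 (adjusted p = 0.05). The VeptpKO value became 0.19 without VeptpKO CL replicate 6 and 0.41 without VeptpKO UUO replicate 8, and that of libraries labelled PdgfbKO became -0.34 without PdgfbKO UUO replicate 4 and -0.08 without PdgfbKO UUO replicate 3. Cox7a2 itself stood at 796, 1272, 1055 and 1001 CPM in PdgfbWT CL and at 444, 404, 465.7 and 426 CPM in PdgfbWT UUO. The ratio of Cox7a1 to Cox7a2 was lower in UUO by 0.88 in IgG (log2 difference -0.88, exact permutation, adjusted p = 0.02) and had the value -0.71 in PdgfbWT (adjusted p = 0.05). It was -0.62 in ABTAA (adjusted p = 0.133), -0.36 in VeptpWT (adjusted p = 0.191), -0.66 in VeptpKO (adjusted p = 0.0659) and -0.03 in libraries labelled PdgfbKO (adjusted p = 0.914), none of which passed, and the difference between the Pdgfb genotypes in UUO kidneys was 0.36 (adjusted p = 0.492). Without PdgfbKO UUO replicate 4 the value in libraries labelled PdgfbKO was -0.38 and that between the genotypes 0.01, and without PdgfbKO UUO replicate 3 they were 0.20 and 0.59. Leaving out 1 library gave -0.79 (without ABTAA UUO replicate 5) to -0.32 (without ABTAA UUO replicate 6) in ABTAA, -0.47 to -0.28 in VeptpWT and -0.84 to -0.49 in VeptpKO. With the larger pseudocount of 5 CPM the unadjusted exact permutation p in PdgfbWT rose to 0.0571, and with arrangements not kept within name form that in IgG was 0.0544. Of the counts of the 3 genes in PdgfbWT, Cox7a1 made up 3.49% in CL and 1.78% in UUO, and Cox7a2l 21.2% and 31.9%. In the 4 PdgfbKO UUO libraries these shares were 3.17% and 21.2%. PdgfbKO UUO replicate 4 gave 77 of the 135 Cox7a1 counts there, and without it the shares were 2.11% and 18.4%.

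**Figure D4:**
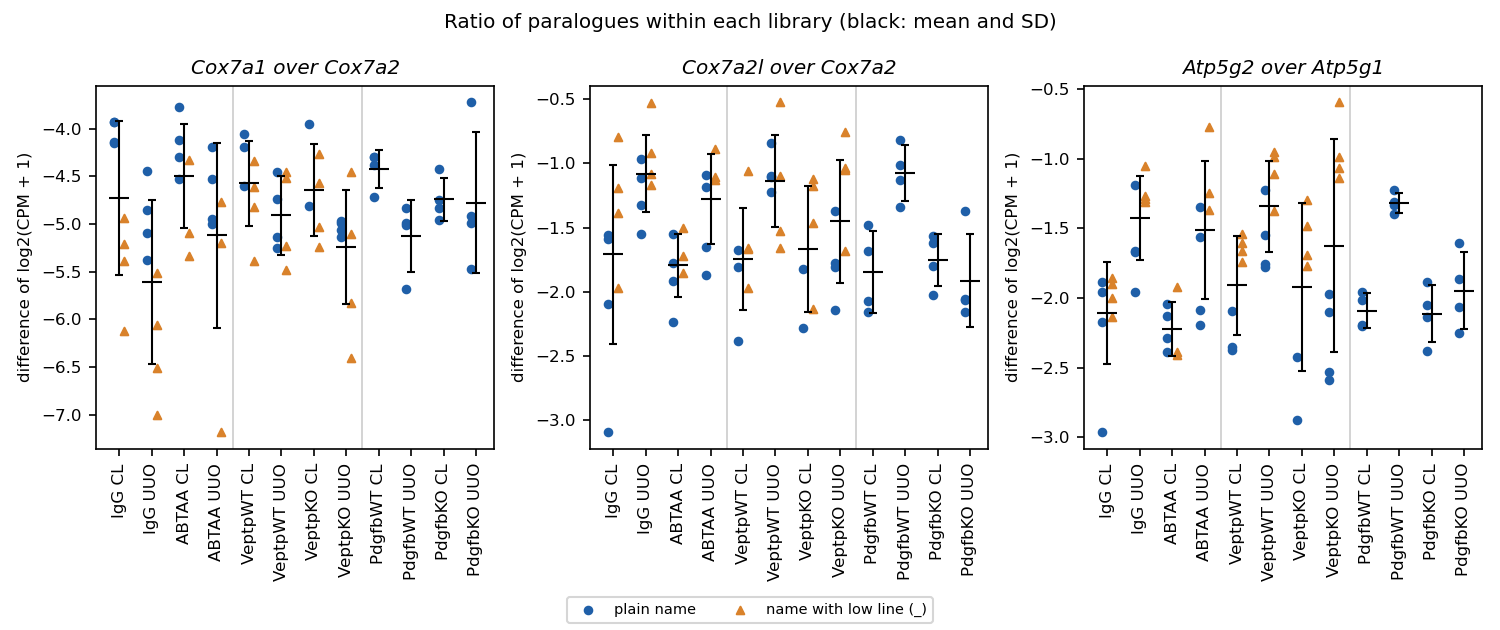
Log2 ratio of paralogues within each library (difference of log2(CPM + 1) values), by group and name form, with mean and SD in black, for Cox7a1 over Cox7a2, Cox7a2l over Cox7a2 and Atp5g2 over Atp5g1. The ratios of Cox7a2l and Atp5g2 lie higher in PdgfbWT UUO than in the other 3 Pdgfb groups by their means, with differences of 0.77 and 0.78 from PdgfbWT CL.

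The form of the library name moved with the members' levels in both arms that hold both forms. Between low-line and plain libraries, over both kidney types, 34 of 42 members differed in the ABTAA arm (33 lower and 1 higher, beside 21.2% of all genes called lower and 18.6% higher) and 40 of 43 in the Veptp arm (39 lower and 1 higher, beside 28.4% and 34%). The median log2 fold change was -0.95 and -1.84. The medians of complex II were the smallest, -0.25 and -0.79, against -1.09 and -1.98 for complex IV and -0.94 and -1.84 for complex V. Uqcrc1 was the member that was higher, by 0.25 ± 0.09 (edgeR adjusted p = 0.0215) and 0.55 ± 0.10 (edgeR adjusted p = 1.05e-05). Atp5e, the epsilon subunit of ATP synthase, had -1.47 ± 0.15 and -2.86 ± 0.13, whereas Atp5b had -0.02 ± 0.11 (edgeR adjusted p = 0.915) and -0.69 ± 0.11 (edgeR adjusted p = 6.60e-07). Uqcr11 in VeptpWT CL kidneys held 849.96 to 1711 CPM in the 3 plain libraries and 129 to 212 CPM in the 4 low-line libraries.

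The size of this difference ran with transcript length. Members up to 700 bases had a median of -1.19 in the ABTAA arm (21 members) and -2.21 in the Veptp arm (22 members), those over 700 and up to 1100 bases -0.99 and -2.03 (7 each), and those over 1100 bases -0.17 and -0.79 (14 each). Over all genes tested the corresponding medians were -0.75, -0.29 and 0.04 in the ABTAA arm and -1.68, -0.68 and 0.14 in the Veptp arm. Across members, Spearman's rho between length and the difference was 0.67 and 0.64. These are descriptions across genes, which share libraries and are not independent replicates. In PdgfbWT, whose names are all plain, the UUO comparison had medians of -1.07, -1.11 and -1.21 in the same length classes. In libraries labelled PdgfbKO, also all plain, they were -0.15, -0.25 and -0.36. The 2 rRNA-like genes Gm42418 and AY036118 together took 9.18% to 21.8% of counts in plain and 0.325% to 0.778% in low-line libraries of the Veptp arm, and 7.32% to 18.7% and 3.89% to 5.91% in the ABTAA arm. Their part in the result was not tested.

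**Figure D5:**
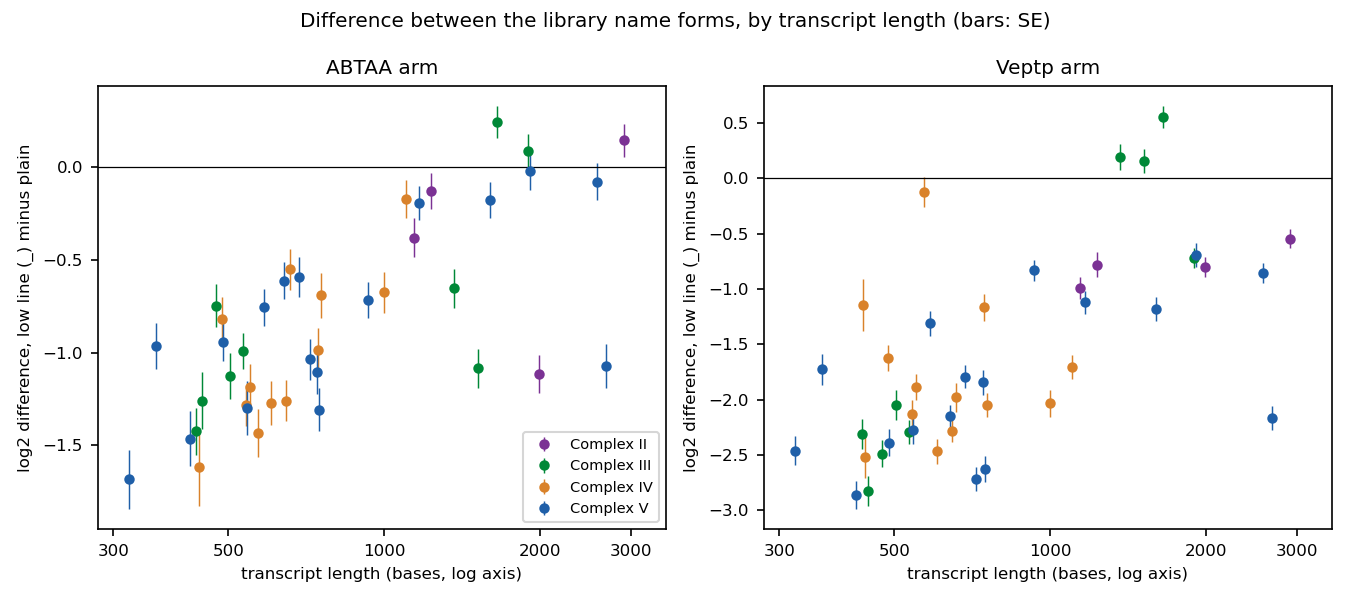
Log2 fold change of low-line against plain libraries for each tested member, by transcript length in bases (log axis), in the ABTAA and Veptp arms. Short transcripts lie lowest by their medians, and members over 1100 bases have medians of -0.17 and -0.79. The classes overlap: in the Veptp arm members up to 700 bases run from -2.86 to -0.12 and those over 1100 bases from -2.17 to 0.55.

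Genes that work with these complexes moved in the same comparisons. Of the 6 mitochondrially encoded subunits of complexes III, IV and V, 4 fell in IgG (median -0.96, beside 18.2% of all genes called lower), 6 in PdgfbWT (median -1.36, beside 19.4%) and 0 in libraries labelled PdgfbKO (edgeR, beside 2.42%, with 4 at an unadjusted p under 0.05). All 6 were higher in PdgfbKO than PdgfbWT UUO kidneys (median 0.84, beside 12% called higher). mt-Cytb, the cytochrome b of complex III, changed by -1.75 ± 0.22 in PdgfbWT (edgeR adjusted p = 7.25e-07). Cycs (cytochrome c) and Ndufa4 (a subunit now assigned to complex IV) changed by -1.53 ± 0.16 and -1.19 ± 0.14 in PdgfbWT. Of the 20 assembly factors tested for complex IV, 11 fell in IgG (beside 18.2%) and 12 in PdgfbWT (beside 19.4%), both with a median of -0.54, and 7 were higher in PdgfbKO than PdgfbWT UUO kidneys (beside 12%). In PdgfbWT, 2 of 4 assembly factors of complex II, 1 of 5 of complex III and 1 of 4 of complex V fell, and the last 2 shares are near the 19.4% of all genes.

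Markers of several kidney cell types moved in the same comparisons. The form term, which raised the members' counts in the ABTAA and Veptp arms, is not in the marker counts. In UUO against CL, the share of all genes called lower was 18.2% in IgG, 12.5% in ABTAA, 8.38% in VeptpWT, 3.47% in VeptpKO, 19.4% in PdgfbWT and 2.42% in libraries labelled PdgfbKO, and the share called higher was 16.3%, 12.6%, 10%, 4.47%, 17.9% and 3.94% in that order. Between PdgfbKO and PdgfbWT UUO kidneys 12% of all genes were higher and 6.58% lower. Of 16 proximal tubule markers, 15 fell in IgG, 14 in ABTAA, 9 in VeptpWT, 6 in VeptpKO, 16 in PdgfbWT (median -1.79) and 7 in libraries labelled PdgfbKO, and 14 were higher in PdgfbKO than PdgfbWT UUO kidneys (median 1.31). Their summed level ran from 16750 to 17745 CPM in PdgfbWT CL, 4377 to 5437 in PdgfbWT UUO, 15163 to 18936 in PdgfbKO CL and 7872 to 15617 in PdgfbKO UUO. All 12 leukocyte markers rose in IgG, ABTAA, VeptpWT and PdgfbWT, 9 rose in VeptpKO and 8 in libraries labelled PdgfbKO, and 7 were lower in PdgfbKO than PdgfbWT UUO kidneys. Of 10 distal nephron markers, 7 fell in IgG, 6 in ABTAA, 6 in VeptpWT, 5 in VeptpKO, 8 in PdgfbWT and 4 in libraries labelled PdgfbKO, and 7 were higher between the genotypes in UUO. Of 8 fibroblast markers tested, 8 rose in IgG, ABTAA and PdgfbWT and 4 in libraries labelled PdgfbKO, and 7 were lower between the genotypes. In the Veptp arm 10 were tested, and 10 rose in VeptpWT and 2 in VeptpKO. Of 10 endothelial markers, 3 rose and 1 fell in IgG, 1 rose in ABTAA, 0 moved in VeptpWT (edgeR, with 2 at an unadjusted p under 0.05), 1 fell in VeptpKO, 2 rose in PdgfbWT, 1 fell in libraries labelled PdgfbKO and 4 were lower between the genotypes. Their summed level had a median of 347 CPM in IgG CL and 377 in IgG UUO, 327 in PdgfbWT CL, 385 in PdgfbWT UUO, 349 in PdgfbKO CL and 243 in PdgfbKO UUO. The part of these cell types in the members' changes was not tested.

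For Cox7a1, markers of other tissues that use it were read beside it. The striated muscle genes tested in the Pdgfb arm (Acta1, Ckm and Myh4, of 12 in the list) fell in both genotypes, and the list summed to 52.6 to 117 CPM in PdgfbWT CL, 7.99 to 28.8 in PdgfbWT UUO, 107 to 148 in PdgfbKO CL and 7.96 to 81.7 in PdgfbKO UUO. The brown adipocyte list summed to 282 to 362 CPM in PdgfbWT CL, 109 to 164 in PdgfbWT UUO, 289 to 380 in PdgfbKO CL and 212 to 344 in PdgfbKO UUO. The general adipocyte list, with 10 genes, summed to 633 to 1164 CPM in PdgfbWT CL, 254 to 363 in PdgfbWT UUO, 541 to 1081 in PdgfbKO CL and 276 to 673 in PdgfbKO UUO, and 3 of its 5 tested genes fell in PdgfbWT and 1 in libraries labelled PdgfbKO. In the brown adipocyte list, the tested members Cpt1b (-2.21 ± 0.32) and Fabp3 (-1.18 ± 0.15), which kidney also expresses, fell in PdgfbWT. Ucp1, the defining gene of brown fat, ranged from 0 to 28.6 CPM in PdgfbWT CL, 0 to 3.03 in PdgfbWT UUO, 0 to 7.65 in PdgfbKO CL and 0 to 54.9 in PdgfbKO UUO. PdgfbKO UUO replicate 4, with 69 Ucp1 counts, held the highest Ucp1 (54.9 CPM), Cox7a1 (61.3 CPM) and Cox8b (26.3 CPM) of its group, where the other 3 libraries had up to 4.57, 30.6 and 6.96 CPM. Their part in the change of Cox7a1 was not tested.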

How the data were processed

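Per the file headers and labels, the deposited table holds raw counts, 1 column per library. The authors prepared libraries by a Smart-seq3 protocol with 4 wells merged per sample, aligned reads to mm10 with STAR 2.7.3a, collapsed unique molecular identifiers with UMI-tools 1.1.4 and counted genes with featureCounts (Subread 1.4.6-p5). The sources used here name neither the annotation nor the strand setting. Preparations can capture short and long transcripts unequally, which can move the levels of members of different length against each other.

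From these counts, edgeR 4.0.16 (R 4.3.3) fitted each arm over its 4 groups by quasi-likelihood after filterByExpr and TMM scaling, with p adjusted by Benjamini-Hochberg over all genes tested and calls at adjusted p under 0.05. The scripts were tested on simulated data. Alternatives were DESeq2 1.42.0, the exact test, no TMM, no filter, the name form as a term or alone, a replicate block and leaving out each library. Libraries range 13.55-fold in total, so the shallowest have the widest counting error. The study's account uses the CL kidney of a mouse as its internal control, so CL and UUO libraries can come from the same animals. The labels do not name animals. The main fits therefore treat libraries as independent, and p-values measure the spread between libraries.

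The members, the rule for named members (core subunits, isoform families, the largest changes of each complex and calls against its direction, with members left uncalled added after their values were seen) and all gene lists were chosen with earlier results of these data known. In the ABTAA arm, CL and UUO low-line libraries of ABTAA-treated mice share numbers and were taken as pairs. Deviations of all 3 pairs correlated (r = 0.166 to 0.397). ABTAA UUO replicate 7 and ABTAA CL replicate 6, of unlike number, reached 0.102. The labels do not say that a number marks an animal, so the pairing is an assumption.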

Additional observations from a re-analysis of the deposited data

Results flagged for a closer look

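Over 60 groups of library values examined, 2 held a library far from the others, where chance alone gives about 1 in 20. In complex II, ABTAA CL replicate 4 was highest at 9.629 (mean log2(CPM + 1)), with the nearest library at 9.342 and the lowest at 9.129. In complex IV, PdgfbKO UUO replicate 2 was lowest at 8.853, with the nearest library at 8.94 and the highest at 8.953. The response to UUO differed between PdgfbKO and PdgfbWT by an interaction term for 39 of 43 members (edgeR, beside 6.66% of all genes called higher), each with the higher log2 response in libraries labelled PdgfbKO.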

How the results depend on the processing

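The fall of members with UUO kept its direction wherever it was called, and counts in IgG and PdgfbWT and between Pdgfb genotypes in UUO kidneys stayed within 1.5 times the reported count in the alternatives run. Counts of members called in UUO against CL moved elsewhere, and each is followed in brackets by the share of all genes called lower in the same fit. In ABTAA (12, 12.5%) the count was 26 with no filter (5.98%), 35 with the form as a term (16.8%), 0 in plain (4.37%) and 34 in low-line libraries (13%), 40 with the replicate block (17%) and 36 in those libraries without it (13.1%). In VeptpWT (7, 8.38%) it was 4 by the exact test (8.42%), 39 with the form as a term (17.3%), 30 in plain (6.7%) and 18 in low-line libraries (11.9%), 34 with the replicate block (11.4%), 2 without the libraries numbered 3, 4, 7 and 8 (2.71%), and 38 with the form as a term and without them (10.6%). In VeptpKO (4, 3.47%) it was 2 without TMM (2.03%), 2 with no filter (1.6%), 1 by the exact test (2.53%), 30 with the form as a term (10.8%), 0 in plain (0%) and 23 in low-line libraries (10.6%), 35 with the replicate block (14.4%), 0 without those libraries (0.127%), and 11 with the form as a term and without them (3.76%). In PdgfbKO (5, 2.42%) it was 3 with no filter (1.32%), 9 by DESeq2 (2.34%) and 1 by the exact test (2.59%). The Pdgfb difference of responses (39 higher, beside 6.66% of all genes) was 24 without TMM (2.86%). The cause was not tested. Leaving out 1 library gave 30 to 41 in IgG, 9 to 17 in ABTAA, 4 to 8 in VeptpWT (4 without VeptpWT CL replicate 1 or 3 or VeptpWT UUO replicate 4, 5 or 8), 2 to 4 in VeptpKO (2 without VeptpKO CL replicate 3, 5 or 6), 41 to 43 in PdgfbWT, 0 to 9 in PdgfbKO, 40 to 42 between Pdgfb genotypes in UUO and 37 to 40 for their difference of responses. In the Veptp arm the 8 same-number pairs had r of 0.0632 to 0.438, and 10 of 16 libraries correlated best with their own number. The alternatives with the form left out of the permutation and the 6 numbered libraries unblocked were chosen after seeing the data. Of the 48 mean levels of a complex in a group, 12 moved by more than the SD between libraries without TMM, as did 1 with a pseudocount of 5 CPM (complex IV in PdgfbWT UUO, 8.02 to 8.07) and 0 with 0.5 CPM. All 12 were in the Pdgfb arm: in PdgfbWT UUO the levels of complexes II, III, IV and V went from 8.27, 8.09, 8.02 and 8.37 to 8.49, 8.31, 8.24 and 8.59, and the others moved by less. Depth limits the scarce tissue forms of complex IV.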

Other observations

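Regulators of mitochondrial gene expression, a list of transcription factors and coactivators, were read beside the members. In IgG kidneys 7 of 11 tested fell with UUO (edgeR, beside 18.2% of all genes called lower), among them Esrra (-1.23 ± 0.23, adjusted p = 4.78e-05) and Esrrb (-1.49 ± 0.40, adjusted p = 0.00378), which are orphan nuclear receptors of oxidative metabolism, Ppargc1a (-1.12 ± 0.21, adjusted p = 4.71e-05), their coactivator, and Ppara (-0.75 ± 0.22, adjusted p = 0.00682), a regulator of fatty acid oxidation. Nrf1 (0.45 ± 0.23, edgeR adjusted p = 0.135) and Gabpa (-0.18 ± 0.15, edgeR adjusted p = 0.395) did not pass. In PdgfbWT 5 of 12 fell (beside 19.4%) and 1 rose (beside 17.9% called higher), with Esrrb at -2.24 ± 0.29 (edgeR adjusted p = 1.05e-06) and Pprc1 at 0.94 ± 0.37 (edgeR adjusted p = 0.0458). Between the Pdgfb genotypes in UUO kidneys, Esrra (0.64 ± 0.20, edgeR adjusted p = 0.0267) and Esrrb (1.66 ± 0.31, edgeR adjusted p = 0.000439) were higher and Pprc1 (-1.12 ± 0.37, edgeR adjusted p = 0.0363) lower in libraries labelled PdgfbKO. In libraries labelled PdgfbKO, 1 of the 12 fell with UUO (edgeR, beside 2.42% called lower).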
